A study of Homo sapiens with 15 samples.

Results

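The tetraspanins are a family of small membrane proteins that cross the membrane 4 times. The genes described here are TSPAN1 together with TSPAN3, TSPAN6, TSPAN13, TSPAN15, CD9, CD63, CD81, CD82 and CD151. Of these 10, 9 are among the 19483 genes that the array's RefSeq accessions could be tied to. A gene was taken as measured where a non-control probe carried one of its RefSeq accessions, which gave 10 probes for 9 of them, CD81 having 2 and each of the others 1. No probe was matched to CD63, which is not analysed here. The list was drawn up with the measured difference between the groups in view, so that difference is given for these genes as a description with its standard error and without a p-value. Which of them lay past the threshold of the fit over all probes is likewise stated as a description.

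The cells were PE/CA-PJ41, a human oral squamous carcinoma line, and the total RNA of 2 stable derivatives was hybridised to Agilent gene expression arrays after incubation in supplemented medium. NCE, the control, carried an empty transfection vector according to the sample labels, whereas the legends of the study describe its control as un-transfected cells. CYGB+ (LST421) carried the pCMV6-Neo plasmid with the human cytoglobin cDNA behind the constitutive CMV promoter, and it is 1 clone picked with a cloning ring under G418. Each group had 3 biological replicates, from RNA taken on separate occasions, and each replicate was run on 3 arrays (NCE) or 2 arrays (CYGB+), 15 arrays in all. The array repeats of a replicate were averaged, so the comparisons are of 3 values against 3, apart from those that take the slide into account. Since CYGB+ is 1 clone, effects of cytoglobin and of the choice of clone cannot be told apart.

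Tetraspanins recruit one another, integrins, immunoglobulin-domain proteins, proteases and growth factor receptors into membrane microdomains, and in doing so they alter cell adhesion, migration, receptor turnover and receptor shedding. CD9, CD63 and CD81 are widely used as protein markers of exosomes, CD63 resides largely in late endosomes, and CD82 is known as a suppressor of metastasis. TSPAN1 is found mainly in epithelial cells and is raised in several carcinomas.

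The groups were first examined by the transfected gene. CYGB gave log2 green-channel intensities, quantile normalised between arrays, of 11.87, 12.16 and 11.94 in the 3 NCE replicates and 11.36, 12.42 and 11.96 in the 3 CYGB+ replicates. The groups overlapped, the difference being -0.07 ± 0.27 (SE, n = 3 against 3), with an adjusted p of 0.911 in the limma fit over all probes. The probe was well above background, by the flag that the scanner software sets for each spot, on all 15 arrays, and its position relative to the transfected cDNA was not looked up. The transcript therefore did not separate the groups, and every direction below rests on the labels, being that of the libraries labelled NCE and CYGB+. This differs from the study, which calls the parent line non-expressing and reports high cytoglobin in LST421 by qPCR and in-cell ELISA. Here NCE was about as bright on the CYGB probe as CYGB+, and the reason was not tested. The labels give Cy3, read in the green channel, for every sample, while the study's methods give cyanine 5 for the control. If the dyes ran as in the methods, the green values of the NCE arrays would not be those of control RNA. The red channel was not read here, so this was not examined.

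The layout of the arrays touches every result. Slide 1 held 8 NCE arrays, and slide 2 held the remaining NCE array (replicate 1) and all 6 CYGB+ arrays. The difference within slide 2, of 1 NCE array against the 3 CYGB+ replicates, is therefore given for the members and for the other genes named as past the threshold, and is drawn in the plots of differences for all genes of the lists. Its standard error holds no spread between NCE replicates, since 1 array gives none. It rests on the spread of the CYGB+ replicates as moderated by limma, and so understates the uncertainty. Each array had 20719 to 24277 probes well above background, and its median correlation with the other arrays was 0.975 to 0.988, except that 1 array of CYGB+ replicate 1 stood apart at 0.954. Of the 8 squamous epithelial markers 8 were well above background on all arrays, among them KRT5, KRT14 and CDH1, and KRT6A was lower in CYGB+ at -0.51 ± 0.08 (limma adjusted p = 0.0313) but at 0.01 ± 0.10 within slide 2. Of the markers of other cell types 1 of 5 leukocyte genes (CD68), 0 of 4 endothelial genes and 1 of 5 fibroblast genes (COL1A2) reached that level.

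Among the 9 measured tetraspanins, TSPAN1 and CD82 were lower in CYGB+ by more than 1 log2 unit, CD81 and CD151 were lower by less, and TSPAN3, TSPAN6, TSPAN13, TSPAN15 and CD9 had overlapping replicate values. All 9 were well above background on all 15 arrays, with no saturated or outlier spot. TSPAN1 and CD82 passed an adjusted p of 0.05 in the fit over all probes, against 5.99% of the 11329 genes at that detection level that were called lower and 5.37% called higher. The 3 values of the groups did not overlap, with CYGB+ lower, for 4 of the 9 genes and for 19.1% of the 11329 genes; they did not overlap with CYGB+ higher for 0 of the 9 and for 17.3% of all. As the list was chosen on this contrast, nothing is read from these shares. The median difference over the 9 was -0.25, with a range of -1.44 to 0.14, and 8 of 9 lay below 0, where the median over the 11329 genes was -0.003.

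**Figure D1:**
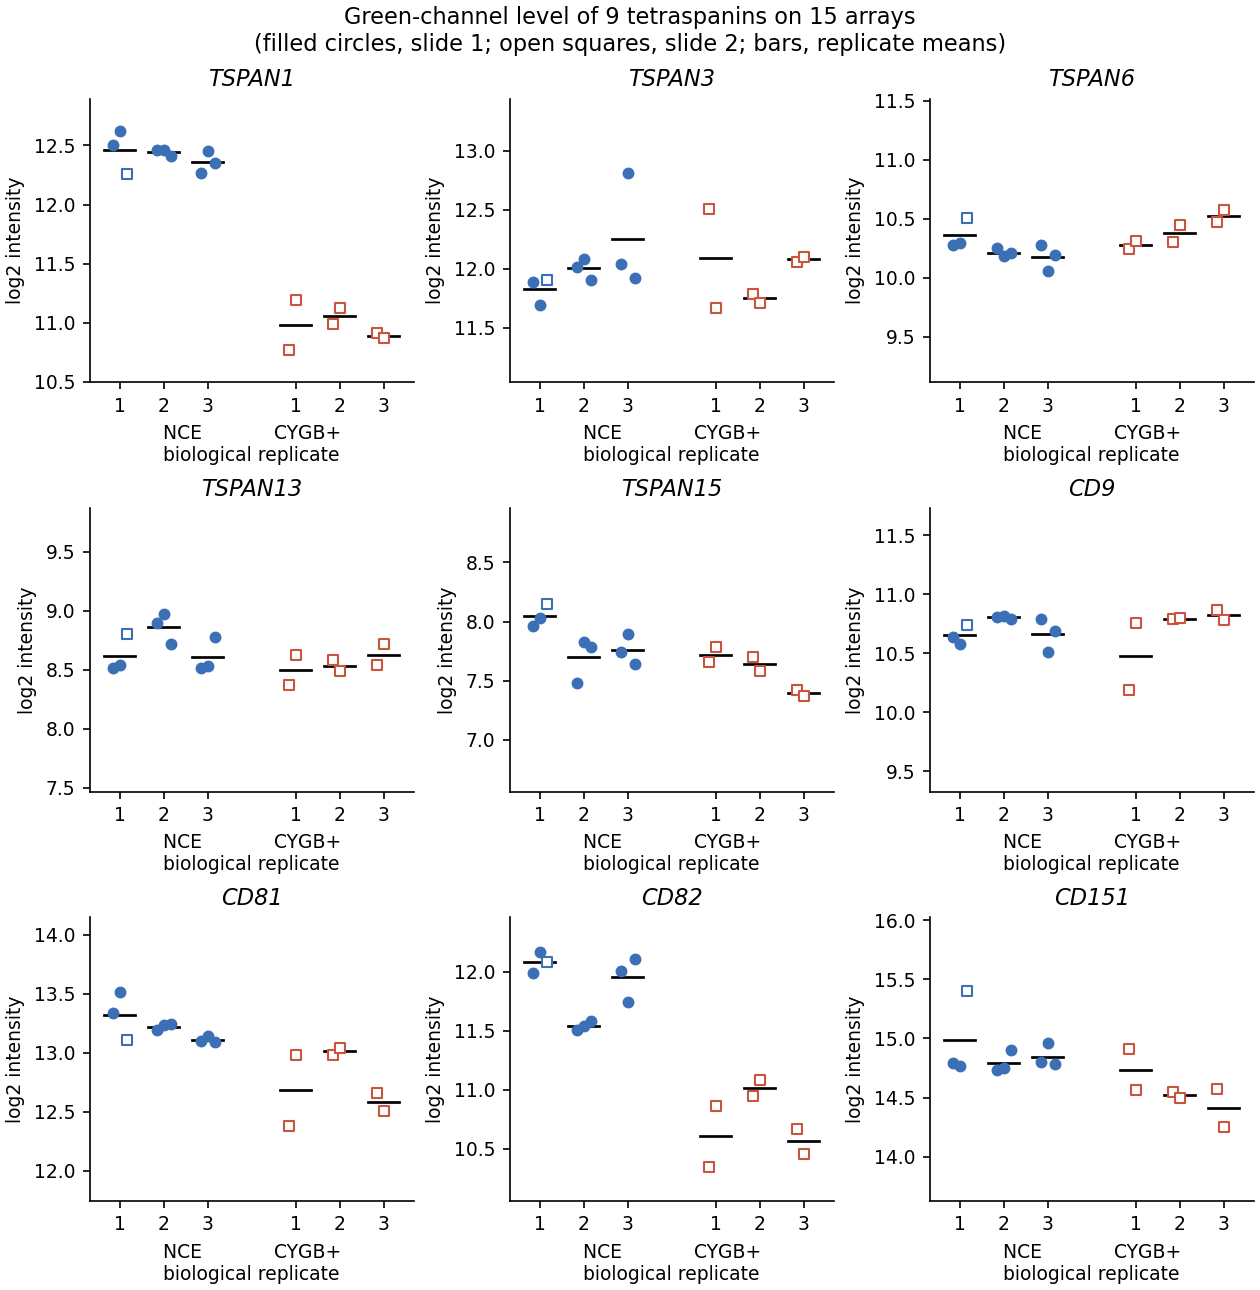
Log2 green-channel intensity of the 9 measured tetraspanins (one panel each, every y axis spanning the same log2 range) on the 15 arrays by biological replicate. Filled circles are arrays of slide 1, open squares arrays of slide 2 and bars the replicate means. TSPAN1, CD82 and, narrowly, CD81 (lowest NCE array 13.09, highest CYGB+ array 13.04) show a gap between all 9 NCE and all 6 CYGB+ arrays. The single NCE array of slide 2 is the highest point for CD151 at 15.40.

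TSPAN1 had the lowest difference of the set and the smallest standard error. Its log2 intensity was 12.46, 12.44 and 12.35 in NCE and 10.98, 11.06 and 10.89 in CYGB+, which is a difference of -1.44 ± 0.06 (SE, n = 3 against 3), or 2.72-fold lower in CYGB+. The single arrays ran from 12.26 to 12.62 in NCE and from 10.77 to 11.19 in CYGB+, so that no array of either group came near the other. The NCE array on slide 2 read 12.26 where the same RNA read 12.50 and 12.62 on slide 1, and the difference within slide 2 was -1.28 ± 0.10. Without the array that stood apart the difference was -1.37. In RNA from whole cultures, fewer cells that express a gene and less RNA per cell cannot be told apart.

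CD82, the metastasis suppressor, was the other member with a difference beyond 1 log2 unit. It read 12.08, 11.54 and 11.95 in NCE and 10.60, 11.02 and 10.56 in CYGB+. The groups did not overlap, but both had 1 replicate that stood towards the other group, replicate 2 in each case. The difference was -1.13 ± 0.18 (SE, n = 3 against 3), which is 2.19-fold lower in CYGB+, and within slide 2 it was -1.35 ± 0.22. The 3 arrays of NCE replicate 1 lay between 11.99 and 12.17, the array on slide 2 among them at 12.08. With the replicate number as a block, CD82 lay on the other side of the threshold, whereas TSPAN1 stayed past it.

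The 2 genes furthest below 0 had unlike upstream sequences, which is why both are shown. Each is the 250 bases before the RefSeq start on the plus strand (GRCh38.p14), TSPAN1 at chr1:46174837-46175086 and CD82 at chr11:44565413-44565662, printed 5′ to 3′ with the motifs found in capitals.
TSPAN1: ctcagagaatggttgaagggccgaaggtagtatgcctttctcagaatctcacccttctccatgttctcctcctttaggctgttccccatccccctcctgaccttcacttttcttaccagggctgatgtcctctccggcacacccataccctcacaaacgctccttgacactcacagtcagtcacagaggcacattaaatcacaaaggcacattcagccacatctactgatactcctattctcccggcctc
CD82: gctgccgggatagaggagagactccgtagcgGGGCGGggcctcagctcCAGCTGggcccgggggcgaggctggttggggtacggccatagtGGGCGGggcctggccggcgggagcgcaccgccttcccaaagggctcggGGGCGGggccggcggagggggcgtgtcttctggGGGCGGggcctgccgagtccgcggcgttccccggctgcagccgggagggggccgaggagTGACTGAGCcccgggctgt
The motifs searched on both strands were the GC box GGGCGG, the TATA box TATAAA, the CCAAT box CCAAT, the E-box CANNTG, the AP-1 site TGANTCA and the antioxidant response element TGACNNNGC. The CD82 window held 4 GC boxes, 1 E-box and 1 antioxidant response element match, none of which overlapped, and the TSPAN1 window held no match to any of the 6. Over the 35116 windows of this length in the RefSeq promoter table, a GC box was present in 42.6%, a TATA box in 10.7%, a CCAAT box in 32.0%, an E-box in 61.8%, an AP-1 match in 6.57% and an antioxidant response element match in 10.9%. The CD82 window was 77.2% G and C with 26 CG pairs, and the TSPAN1 window was 51.2% with 4, beside medians of 58.0% and 11 over all windows. These matches describe the letters alone. Of the 10 genes, 7 had an entry in the table.

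CD81 is a component of the B cell co-receptor and, with CD9, associates with immunoglobulin-domain partners in many cell types. The brighter of its 2 probes read 13.32, 13.22 and 13.11 in NCE and 12.68, 13.01 and 12.59 in CYGB+. The replicate values did not overlap, the lowest NCE value being 13.11 and the highest CYGB+ value 13.01, and the difference was -0.46 ± 0.12 (SE, n = 3 against 3). The second probe read 13.32, 13.26 and 13.07 in NCE and 12.04, 12.90 and 12.56 in CYGB+, a larger difference of -0.71 ± 0.22. Both probes were low on the array that stood apart, at 12.38 and 11.28, and without that array the differences were -0.36 and -0.46. Within slide 2 they were -0.36 ± 0.20 and -0.52 ± 0.37. The probes had a Pearson correlation of 0.89 over the 15 arrays, as a description of points that share replicates and slides.

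CD151, a close partner of laminin-binding integrins and a constituent of hemidesmosomes, gave a small difference whose size on slide 2 rested on 1 array. It read 14.98, 14.80 and 14.85 in NCE and 14.73, 14.53 and 14.41 in CYGB+, with a difference of -0.32 ± 0.10 (SE, n = 3 against 3). The NCE array on slide 2 read 15.40, while the other 8 NCE arrays lay between 14.73 and 14.96. Because that array alone stands for NCE on slide 2, the difference within the slide was -0.84 ± 0.15, more than 1.5 times the main value, and without NCE replicate 1, to which the array belongs, the difference was -0.26. In the authors' value table it was -0.08 ± 0.14. The part of the slide in the CD151 value was not tested.

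TSPAN15 belongs to the TspanC8 tetraspanins, which escort the protease ADAM10 to the cell surface. It read 8.05, 7.70 and 7.76 in NCE and 7.72, 7.64 and 7.39 in CYGB+, so that the groups overlapped at the edge. The difference was -0.25 ± 0.13 (SE, n = 3 against 3) and within slide 2 it was -0.57 ± 0.16, again with the NCE array of slide 2 as the highest of its group at 8.15. TSPAN13 read 8.62, 8.86 and 8.61 in NCE and 8.50, 8.54 and 8.63 in CYGB+, a difference of -0.14 ± 0.08 that was -0.25 ± 0.09 within slide 2. In both genes the spread between replicates was of the size of the difference.

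TSPAN3, TSPAN6 and CD9 did not separate the groups. CD9, an exosome marker that also binds the heparin-binding EGF precursor, read 10.65, 10.81 and 10.66 in NCE and 10.48, 10.80 and 10.83 in CYGB+, with a difference of -0.01 ± 0.11 (SE, n = 3 against 3) that was -0.04 ± 0.18 within slide 2. Its lowest value came from the array that stood apart, at 10.19, and without that array the difference was 0.09. TSPAN3 read 11.83, 12.00 and 12.25 in NCE and 12.09, 11.75 and 12.08 in CYGB+, a difference of -0.06 ± 0.14 that was 0.07 ± 0.18 within slide 2. It had the widest spread between array repeats among the brightest probes of the 9 members, with an SD of 0.31, owing to 1 array in each group at 12.81 and 12.51.

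TSPAN6 was the single member above 0. It read 10.36, 10.22 and 10.18 in NCE and 10.27, 10.37 and 10.52 in CYGB+, a difference of 0.14 ± 0.08 (SE, n = 3 against 3). Within slide 2 the sign turned to -0.12 ± 0.12, since the NCE array there was the highest of its group at 10.51.

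**Figure D2:**
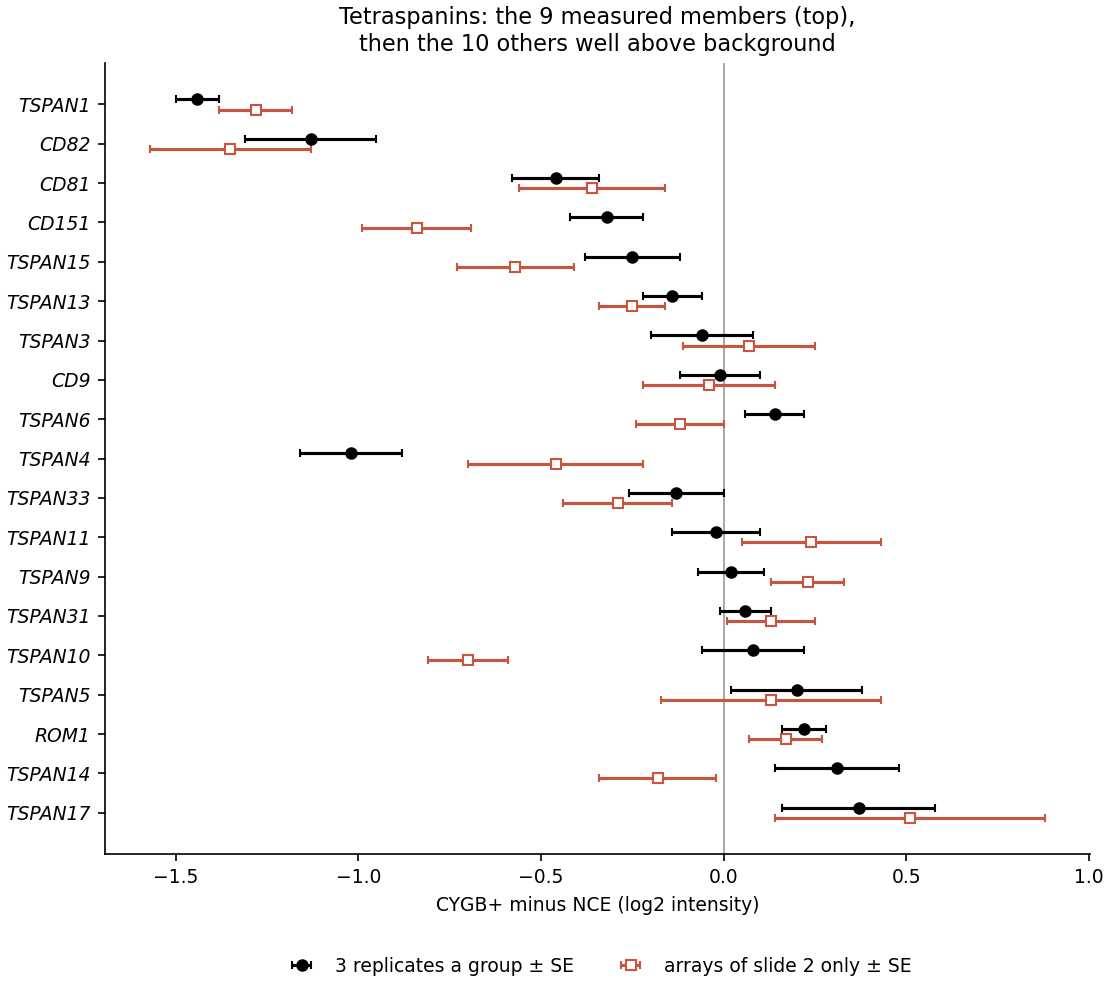
Difference in log2 green-channel intensity, CYGB+ minus NCE, for the 9 measured members and, under them, the 10 other tetraspanins well above background on all arrays. Black points are the 3 against 3 replicates with the standard error of the fit, and open red squares are slide 2 alone, 1 NCE array against 3 CYGB+ replicates. The error bars of the squares hold no spread between NCE replicates. TSPAN1 and CD82 lie beyond -1 on both, while TSPAN4 moves from -1.02 to -0.46 and CD151 from -0.32 to -0.84.

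The rest of the family was compared by the fit over all probes, and this list too was drawn up with earlier results of these data known. All 23 other tetraspanins had a probe, and 10 were well above background on all arrays. Of these 10, 1 passed the threshold with CYGB+ lower and 0 with CYGB+ higher, beside 5.99% and 5.37% of all genes, so that 1 of 10 is near that share. The 10 had a median difference of 0.07. The 8 not above background on any array were TSPAN2, TSPAN8, TSPAN16, TSPAN18, CD37, CD53, UPK1A and UPK1B, which include the leukocyte tetraspanins CD37 and CD53 and the uroplakins of the bladder. TSPAN7, TSPAN12, TSPAN19, TSPAN32 and PRPH2 were above background on 1 to 10 arrays.

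TSPAN4, which marks migrasomes, was the one that passed. It read 10.94, 10.95 and 11.04 in NCE and 9.72, 10.26 and 9.90 in CYGB+, with no overlap. The difference was -1.02 ± 0.14 (limma, Benjamini-Hochberg adjusted p = 0.0195, n = 3 against 3), lower in 3 of 3 CYGB+ replicates. The NCE array on slide 2 read 10.42, while the same RNA read 11.19 and 11.22 on slide 1. The difference within slide 2 was accordingly -0.46 ± 0.24, and with the slide as a block the limma adjusted p was 0.748. A second, dimmer probe gave -0.90 ± 0.21 (limma adjusted p = 0.0782). In the RefSeq gene order TSPAN4 and CD151 are separated by 1 protein-coding gene on chromosome 11, and CD82 and CD81 lie on the same chromosome.

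The other 9 did not pass on their brightest probe. TSPAN17 had the highest difference at 0.37 ± 0.21 (limma adjusted p = 0.411), or 0.51 ± 0.37 within slide 2, its replicates reading 7.87, 7.85 and 7.73 in NCE and 7.69, 8.45 and 8.42 in CYGB+. The low CYGB+ replicate 1 came from the array that stood apart, which read 6.78 where its repeat read 8.61. Without that array, a setting chosen after seeing the data, the TSPAN17 difference was 0.68 ± 0.07 (limma adjusted p = 0.00457). The dimmer TSPAN17 probe gave a like difference over all arrays with less spread, 0.39 ± 0.05 (limma adjusted p = 0.0153). Its values were 6.98, 6.97 and 6.94 in NCE against 7.31, 7.31 and 7.43 in CYGB+. That probe was at 0.40 ± 0.09 within slide 2 and had a limma adjusted p of 0.0935 with the slide as a block and 0.0504 with the replicate block. TSPAN14, like TSPAN15 an escort of ADAM10, differed by 0.31 ± 0.17 on its brightest probe (-0.18 ± 0.16 within slide 2) and by -0.14 ± 0.09, -0.10 ± 0.12 and 0.03 ± 0.05 on the others, and TSPAN33, of the same subgroup, by -0.13 ± 0.13. ROM1, a photoreceptor disc tetraspanin, differed by 0.22 ± 0.06 with no overlap (limma adjusted p = 0.104), with outlier spots on 4 arrays left out. TSPAN5 differed by 0.20 ± 0.18. TSPAN10, TSPAN31, TSPAN9 and TSPAN11 lay between -0.02 and 0.08, although TSPAN10 was at -0.70 ± 0.11 within slide 2. The dimmer TSPAN10 probe was at -0.06 ± 0.07, and within slide 2 it had the other sign, at 0.16 ± 0.12.

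**Figure D3:**
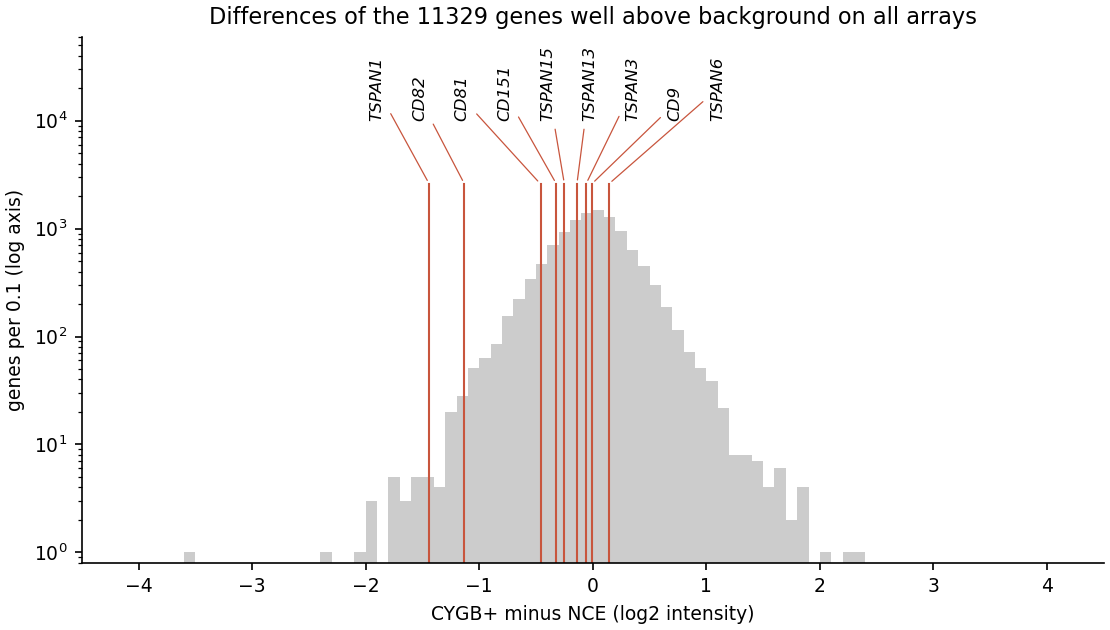
Number of genes (log axis) by their difference in log2 green-channel intensity, CYGB+ minus NCE, for the 11329 genes well above background on all arrays, each by its brightest RefSeq probe. Red lines are the 9 measured tetraspanins, of which TSPAN1 at -1.44 and CD82 at -1.13 lie in the lower tail and the other 7 between -0.46 and 0.14.

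The lateral partners of tetraspanins were examined next, that is the integrins, immunoglobulin-domain proteins, claudins, proteases and receptors with which they associate. Of 20 such genes 19 were well above background on all arrays, 3 of them passed the threshold with CYGB+ lower and 0 with CYGB+ higher, beside the 5.99% and 5.37% of all genes given above. Their median difference was -0.29.

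MMP14, a membrane-anchored collagenase whose trafficking involves several tetraspanins, read 9.70, 9.71 and 9.58 in NCE and 8.36, 8.58 and 8.30 in CYGB+. The difference was -1.25 ± 0.09 (limma adjusted p = 0.00543, n = 3 against 3), lower in 3 of 3 CYGB+ replicates, and it was -1.24 ± 0.14 within slide 2. CLDN1, the tight junction claudin that pairs with CD81, read 10.40, 11.10 and 11.40 in NCE and 9.24, 8.83 and 9.47 in CYGB+. The difference was -1.78 ± 0.29 (limma adjusted p = 0.0317) and -1.27 ± 0.29 within slide 2, with an adjusted p of 0.117 once the slide was a block. EGFR, whose signalling CD82 dampens, read 10.11, 10.28 and 10.30 in NCE and 9.22, 9.41 and 9.67 in CYGB+ on its brightest probe, a difference of -0.79 ± 0.12 (limma adjusted p = 0.0281) that was -0.67 ± 0.20 within slide 2. Its 2 dimmer probes, which carry accessions of other transcripts, were at 0.14 ± 0.11 and -0.04 ± 0.11, and the brightest one had outlier spots on 8 arrays, which were left out there.

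The 4 integrin subunits of the list did not pass the test. ITGB4 differed by -0.70 ± 0.15 (limma adjusted p = 0.0584) and ITGA6 by -0.59 ± 0.21 (limma adjusted p = 0.197), neither overlapping between groups, and within slide 2 they were at -0.29 ± 0.26 and -0.47 ± 0.33. A dimmer ITGA6 probe was at -1.12 ± 0.27 (limma adjusted p = 0.0834, and 0.0435 with the replicate block), but at -0.56 ± 0.36 within slide 2, with an adjusted p of 0.792 once the slide was a block. ITGB1 differed by -0.11 ± 0.14, with outlier spots on 10 arrays left out. ITGA3 spread widely, from 11.22 to 12.04 in NCE and from 10.87 to 12.11 in CYGB+, with a difference of -0.30 ± 0.39. EPCAM, which joins tetraspanin complexes through CLDN7, differed by -0.50 ± 0.12 (limma adjusted p = 0.0874, 0.0478 with the replicate block and 0.869 with the slide as a block), and CLDN7 by 0.57 ± 0.14 in the other direction (limma adjusted p = 0.0816, and 0.955 with the slide as a block). Within slide 2 EPCAM was at -0.19 ± 0.14 and CLDN7 at 0.15 ± 0.19. The immunoglobulin-domain partners of CD9 and CD81 also missed the threshold, PTGFRN at -0.52 ± 0.25 and IGSF8 at -0.13 ± 0.23. For ADAM10, the cargo of TSPAN15, the brighter probe differed by -0.08 ± 0.06 and the dimmer one by -0.41 ± 0.07 (limma adjusted p = 0.0319, and 0.0611 with the replicate block), so its probes disagree there, while within slide 2 they were at -0.29 ± 0.09 and -0.28 ± 0.11.

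**Figure D4:**
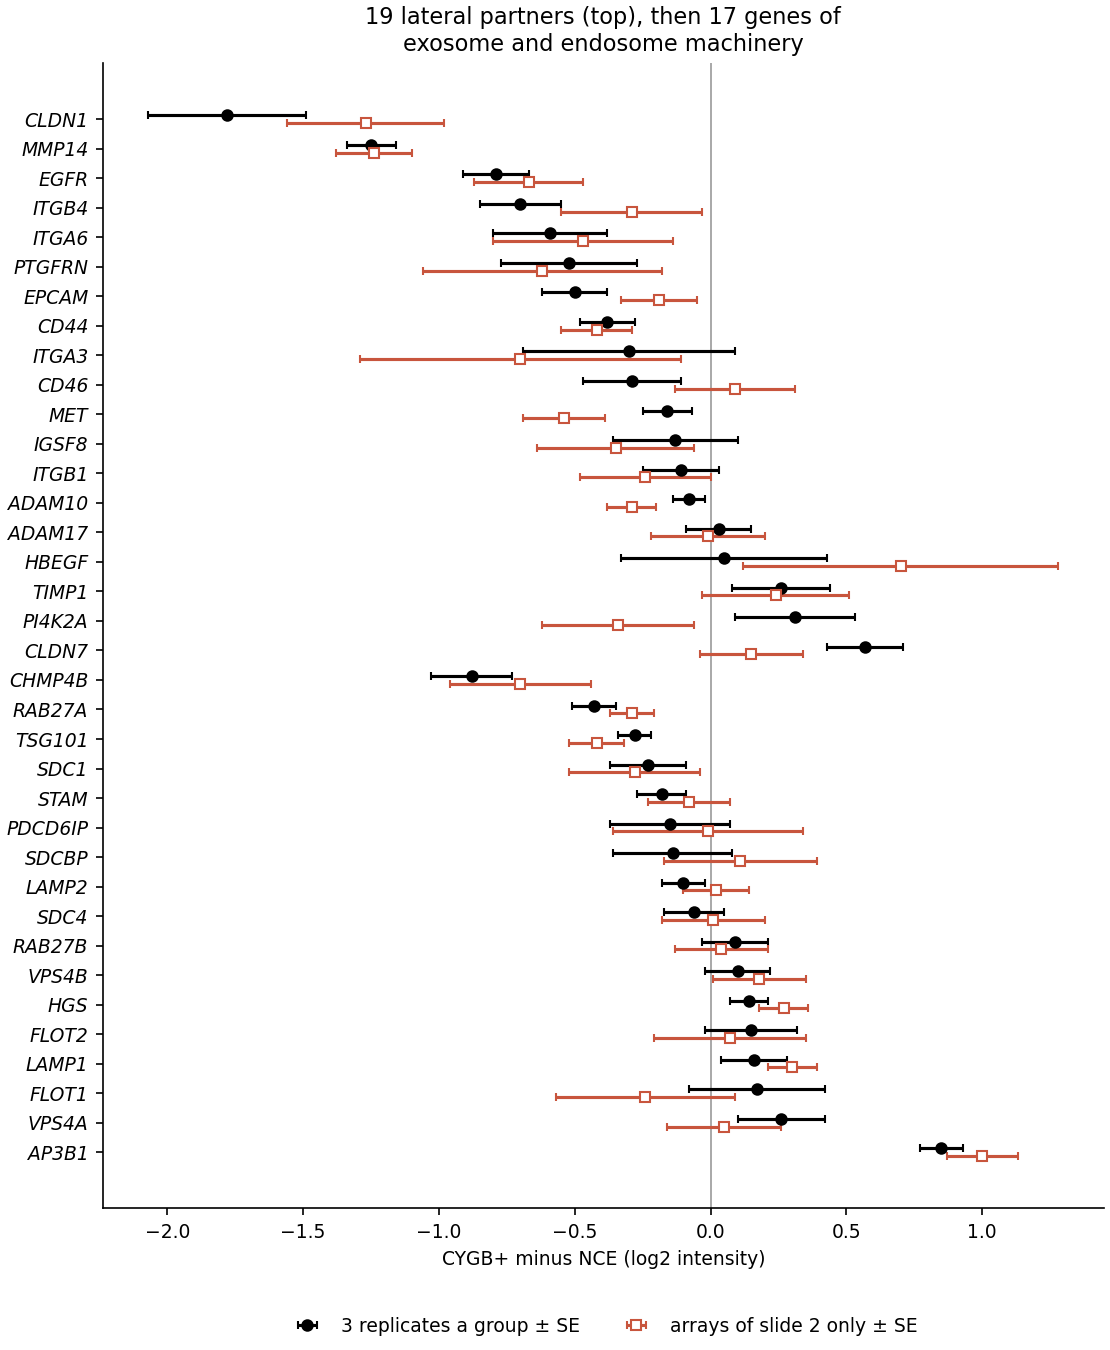
Difference in log2 green-channel intensity, CYGB+ minus NCE, for 19 lateral partners and, under them, 17 genes of exosome and endosome machinery, drawn as for the tetraspanins. CLDN1 at -1.78, MMP14 at -1.25 and EGFR at -0.79 head the first list, and AP3B1 at 0.85 stands apart in the second.

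All 17 genes of exosome and endosome machinery were well above background on all arrays, and the threshold was passed by 2 with CYGB+ lower and 1 with CYGB+ higher, beside 5.99% and 5.37% of all genes. The share of 1 in 17 is near the latter, and the median difference was -0.06. AP3B1, a subunit of the adaptor complex that carries CD63 and other lysosomal membrane proteins from endosomes, read 9.09, 9.23 and 9.20 in NCE and 9.88, 10.11 and 10.09 in CYGB+. It rose by 0.85 ± 0.08 (limma adjusted p = 0.00825, n = 3 against 3), in 3 of 3 replicates, and by 1.00 ± 0.13 within slide 2. CHMP4B, an ESCRT-III subunit that drives membrane scission, read 11.51, 11.51 and 11.55 in NCE and 10.44, 10.98 and 10.52 in CYGB+, a difference of -0.88 ± 0.15 (limma adjusted p = 0.0324) that was -0.70 ± 0.26 within slide 2. Its limma adjusted p was 0.397 with the slide as a block and 0.054 with the replicate block. RAB27A, a small GTPase of exosome secretion, fell by less, -0.43 ± 0.08 (limma adjusted p = 0.0455), or -0.29 ± 0.08 within slide 2, and had an adjusted p of 0.333 with the slide as a block.

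The remaining genes of that list did not pass on their brightest probe. TSG101, of ESCRT-I, differed by -0.28 ± 0.06 (limma adjusted p = 0.0564), and the syndecan SDC1 and its adaptor SDCBP differed by -0.23 ± 0.14 and -0.14 ± 0.22. LAMP1, a lysosomal membrane protein, was at 0.16 ± 0.12. The 3 probes of LAMP2, which carry accessions of different transcripts, were at -0.10 ± 0.08, -0.39 ± 0.08 and 0.52 ± 0.10, the last of these with a limma adjusted p of 0.0424, or 0.0646 with the replicate block, and a difference of 0.50 ± 0.17 within slide 2.

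The genes whose 6 replicate values, each centred on its own mean, lay closest to those of TSPAN1 were sought among 14152 RefSeq probes well above background on all arrays, tetraspanins left out. By root mean square distance on the log2 scale they were COL1A2 (0.071), OXTR (0.079), FOXA2 (0.096), ARHGEF40 (0.096) and MMP14 (0.106). With 6 values this distance rests largely on the size of the difference between the groups, the contrast on which the list was chosen. Within slide 2 the 5 genes, in that order, were at -1.55, -1.77, -1.80, -1.48 and -1.24, and TSPAN1 was at -1.28. OXTR, the oxytocin receptor, read 10.33, 10.13 and 9.96 in NCE and 8.67, 8.79 and 8.66 in CYGB+. COL1A2, a chain of type I collagen, read 7.94, 7.81 and 7.79 in NCE and 6.52, 6.65 and 6.40 in CYGB+. With the scanner software's processed signal the difference was -2.54 ± 0.21 for COL1A2, -1.49 ± 0.18 for MMP14 and -1.43 ± 0.12 for TSPAN1. The likeness in size of COL1A2 to TSPAN1 therefore depends on the processing. FOXA2 was about as dim as COL1A2 in CYGB+, at 6.48, 6.53 and 6.29, and was not compared in this way. COL1A2 had outlier spots on 7 arrays, which were left out, and it is also the 1 fibroblast marker well above background on all arrays. Of the other 4 fibroblast markers, COL1A1 was well above background on 13 arrays, DCN on 1, and PDGFRB and LUM on 0; COL1A1 differed by 0.10 ± 0.14, and the part of fibroblast RNA in the TSPAN1 value was not tested.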

How the data were processed

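Intensities were read from the scanner files deposited by the authors, 1 per array (Agilent Feature Extraction 10.7.3.1 per the file headers; the flag columns read from these files, for outlier, saturated and well above background spots, are other values that the authors deposited unchanged). The green channel was used, since all samples are labelled Cy3; the study's methods give cyanine 5 for the control, and the red channel was not used here. The files hold no mean signal, so the median spot and background intensities were used in place of the planned mean. Background was corrected by normexp with an offset of 50, outlier spots were left out, arrays were quantile normalised as in the methods, and spots of a probe and then the array repeats of a replicate were averaged. That left 42405 probes, of which 25422 were named through RefSeq accessions. A gene is given by its brightest RefSeq probe. CYGB+ and NCE were compared with limma 3.58.1 (R 4.3.3) on the log2 scale, with Benjamini-Hochberg adjustment over all probes and a threshold of 0.05. The fit was tested on simulated data.

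The authors also deposited a table of log2 values for 15040 probes, with column medians of -0.161 to 0.182. It correlated with the probe-centred green channel at 0.44 to 0.79 over arrays and kept its direction, but its exact scaling and centring are not given in the sources used here. It served as an alternative.

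Same-numbered replicates of the groups deviated together, with correlations of 0.172, 0.186 and 0.256 between their deviations from the group means, each above the 0.1 taken as a sign of pairing, and the replicate block was fitted as an alternative. Differently numbered replicates ranged from -0.419 to 0.232, and 3 of these 6 pairs were also above 0.1, so the pairing is weakly marked. The labels describe RNA taken on separate occasions from 1 cell line a group, so p-values measure the spread between those occasions. Array data hold no counts, and the precision is limited by 3 replicates a group.

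The members and the other lists were chosen with earlier results of these data known. Named genes were all members, the other tetraspanins well above background, genes of the other lists past the threshold with a difference of at least 0.58 (1.5-fold), and the 5 genes nearest to TSPAN1; further genes of the lists were named after their values were seen. Promoter sequences are from RefSeq (GRCh38.p14). The grid of the array was annotated on another build, so no probe positions are given.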

Additional observations from a re-analysis of the deposited data

Results flagged for a closer look

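In 3 of 18 sets of arrays (9 genes in each group) 1 array lay outside the others by Dixon's criterion. For independent values chance gives about 1 in 20, but these arrays share replicates and slides and recur in every gene, so that rate need not apply. For TSPAN3 the second array of NCE replicate 3 read 12.81, the next highest of the 9 NCE arrays being 12.08. For CD9 the first array of CYGB+ replicate 1 read 10.19, the next lowest of the 6 CYGB+ arrays being 10.76, and this is the array with the low correlation to the others. For CD151 the third array of NCE replicate 1, the single NCE array on slide 2, read 15.40, the next highest of the 9 being 14.96.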

How the results depend on the processing

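Over all probes 2055 passed the threshold. That count was 1232 with the processed signal, 1369 with centring on the 75th percentile, 914 with the slide as a block, 0 within slide 2 (1 NCE array, 4441 at an unadjusted p under 0.05), 136 with the methods' t-test, 410 to 2047 with 1 replicate left out and 3682 without the array that stood apart, a setting chosen after seeing the data. Of the 9 tetraspanins 2 passed. With the replicate block 1 did (TSPAN1; the paired fit left 1792 probes over all), with the methods' t-test 1, within slide 2 0, and with 1 replicate left out 1 to 3. TSPAN1 was past it under each of these except within slide 2, and CD82 was lost without any one of NCE replicates 1, 2 and 3 and CYGB+ replicates 1 and 3. CD151 passed with the slide as a block, a fit of single arrays, and without the array that stood apart, and CD81 without CYGB+ replicate 2. Of the other lists 7 genes passed on their brightest probe, whether or not above background on all arrays. The count was 4 with the processed signal, 3 with the slide as a block, 0 within slide 2, 0 with the methods' t-test, 2 to 7 with 1 replicate left out and 13 without the array that stood apart. In the paired fit (replicate block) the count was again 7. MMP14 and AP3B1 passed under 14 of 16 alternatives, TSPAN4 and EGFR under 8 of 16, CLDN1 under 7 of 15 and CHMP4B under 6 of 16. Among these alternatives, centring on the 75th percentile gave all listed probes the same standard error of 0.22. Passing under that setting therefore does not reflect the replicate spread of the gene. The differences of TSPAN1, CD82, CD81, CD151, TSPAN13 and TSPAN15 kept their sign under 17 of 17 alternatives. TSPAN1 ranged from -1.48 to -0.96 and CD82 from -1.35 to -0.72, the least in each case from the authors' value table. TSPAN6 kept its sign in 15, CD9 in 12 and TSPAN3 in 11 of 17. The causes were not tested.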
